A study of Mus musculus with 2 samples.

Results

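The receptors described here are 10 genes for nutrient fatty acids, their derivatives and prostaglandins, taken by name from the 38924 genes of the deposited tables: Ffar1, Ffar2, Ffar3, Ffar4, Gpr119, Gpr55, Cnr1, Ptger3, Ptger4 and S1pr1. All 10 were matched to a gene ID, and 9 had 100 or more counts over both libraries. RNA-seq counts estimated with RSEM came from pancreatic islets, the endocrine clusters of the pancreas, of mice of the strain CAST/EiJ (CAST), which descends from wild castaneus mice, and of C57BL/6J (B6), the strain of the reference genome. In both groups the mice were male, 10 weeks old, on chow and otherwise untreated, and islets of 2 mice were pooled, of which 250 per strain were used for RNA and the rest for protein work not analysed here. During isolation the islets were kept in buffer with 16.7 mM glucose. Each strain is represented by 1 library, so no spread between animals can be estimated, no difference was tested, and every ratio compares these libraries only.

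All 10 genes encode G protein-coupled receptors, which pass a signal from a lipid outside the cell to G proteins inside it. In beta cells, receptors coupled to Gq or Gs raise calcium or cyclic AMP and increase glucose-stimulated insulin secretion, and those coupled to Gi lower cyclic AMP and restrain it. Fatty acids come to the islet from blood and from local lipolysis, while endocannabinoids and prostaglandin E2 are made by enzymes in or near the cells that carry the receptors.

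The libraries held 104324631 expected counts for CAST and 76600903 for B6. Ins2, an insulin gene and the defining beta cell transcript, stood at 477729 TPM (the share of transcript molecules times 1000000) in CAST and 404421 TPM in B6. Because insulin takes up so much of the total, a gene's TPM can be lower in CAST when its share of the remaining RNA is not. Ratios between libraries therefore use counts scaled by TMM factors, on which the median gene with 20 or more counts differed by log2 0.01, whereas by TPM with a pseudocount of 1 it differed by -0.22. All ratios and medians given below by TPM hold this pseudocount, which draws those of genes near or below 1 TPM towards 0. Acinar enzyme genes, from exocrine cells carried over with islets, were at least 2-fold higher in CAST for 15 of 15 listed genes. Over all genes with 100 or more counts 7.18% were. The acinar genes summed to 25440 TPM in CAST and 8535 TPM in B6. In bulk RNA, fewer cells of a type and less RNA per cell cannot be told apart. CAST reads carry strain variants against the B6-based reference, and their part in the ratios was not tested.

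The receptors as a group lay at the same place as all genes, with differences in both directions for single members. Of the 9 with enough counts, none was at least 2-fold higher in CAST, where 7.18% of all genes were, and Cnr1 alone was at least 2-fold higher in B6, where 5.99% of all genes were. With so few members these shares say nothing particular about the group. The median log2 ratio of CAST over B6 was 0.03, with 5 members above 0 and 4 below, and the extremes were Ptger3 (0.82) and Cnr1 (-1.27). The counting interval lay above 0 for 3 members (Ffar1, Ptger3 and S1pr1), below 0 for 3 (Ffar4, Gpr119 and Cnr1), and spanned 0 for Ffar2, Ffar3 and Ptger4.

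**Figure D1:**
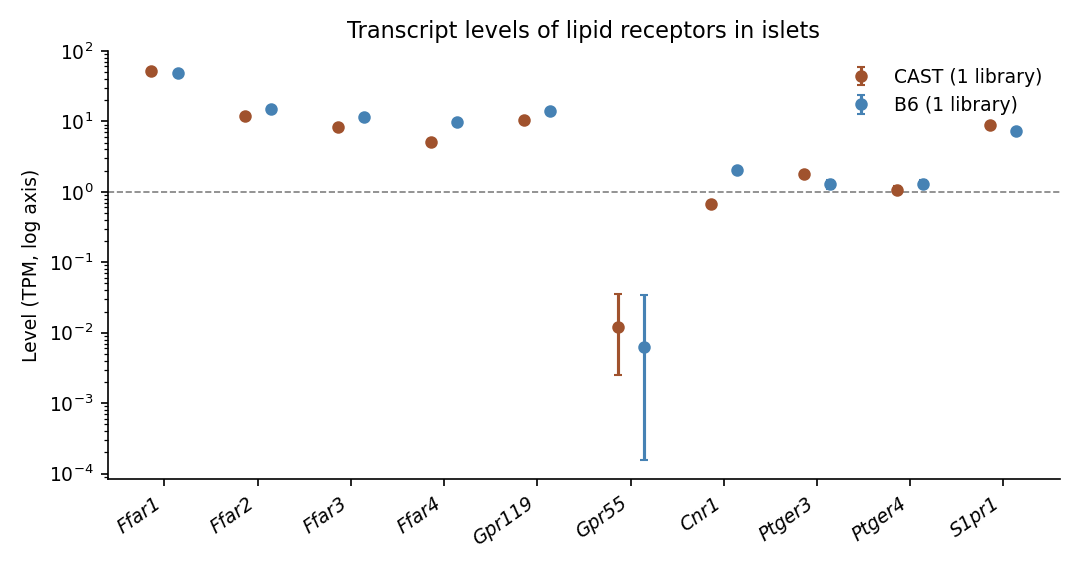
Level of each receptor gene in TPM (log axis) in the CAST and B6 libraries, with exact Poisson intervals of the count as bars and a dashed line at 1 TPM. Ffar1 stood highest at 51.5 TPM in CAST and 47.7 TPM in B6, and Gpr55 lowest at 0.0121 TPM in CAST and 0.00625 TPM in B6.

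In both libraries Ffar1 was the most abundant of the receptors and Gpr55 the least. By TPM, which is per length, the order in CAST was Ffar1, Ffar2, Gpr119, S1pr1, Ffar3, Ffar4, Ptger3, Ptger4, Cnr1 and Gpr55. In B6 it was Ffar1, Ffar2, Gpr119, Ffar3, Ffar4, S1pr1, Cnr1, Ptger4, Ptger3 and Gpr55. The counting intervals of neighbours overlapped for S1pr1 and Ffar3 in CAST, and for Ffar2 and Gpr119, and Ptger4 and Ptger3, in B6. S1pr1 thus stood above Ffar3 and Ffar4 in order in CAST and below both in B6, and Cnr1 stood below both prostaglandin receptors in CAST and above both in B6. At a threshold of 1 TPM, 8 receptors were detected in CAST and 9 in B6, with Cnr1 on either side of it. The 10 genes summed to 99.8 TPM in CAST and 110 TPM in B6, of which Ffar1 made up 51.6% in CAST and 43.4% in B6. Rescaling without the hormone and acinar genes multiplies TPM by 2.71 in CAST and 2.35 in B6. Cnr1 then stood at 1.82 TPM in CAST, above the threshold, and which library has the larger sum also depends on the scaling.

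Ffar1 (ENSMUSG00000044453, GRCm38 chromosome 7, 30857390 to 30861564, minus strand) encodes the Gq-coupled receptor for long-chain fatty acids, through which these potentiate glucose-stimulated insulin secretion from beta cells. It had 4272 counts and 51.5 TPM in CAST, against 2543 counts and 47.7 TPM in B6. Of the 38924 genes 12540 reached 1 TPM in CAST and 12811 in B6. Among all 38924, Ffar1 was in the top 3.09% in CAST and the top 4.08% in B6. The scaled count was 1.37-fold higher in CAST (log2 0.46, 95% counting interval 0.39 to 0.53), and by TPM the log2 ratio was 0.11. Markers of beta cells in the same libraries had a median log2 ratio of 0.07 and summed to 557978 TPM in CAST and 490838 TPM in B6, with 7 of 10 above 0, no gene at 0 counts, and a median of -0.27 by TPM. The highest were Ins2 (0.60) and the glucose transporter gene Slc2a2 (0.63), and below 0 were G6pc2 (-0.38), the transcription factor gene Pdx1 (-0.21) and Iapp (-0.01). Their part in the ratio of Ffar1 was not tested. When TPM was rescaled without the hormone and acinar genes, Ffar1 stood at 139 TPM in CAST and 112 TPM in B6.

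The deposited values also bear on the gene model Ffar1 was counted on. Among transcripts with 1000 or more counts, a straight line of M21 length on the count divided by the fraction was fitted in each library. Transcripts far from the line were left out in steps. Of the transcripts at the start of this fit, 77.0% lay within 10 bases of the line in either library. A length read from the line is called the implied length. For Ffar1 the implied length was 903 bases in both, where M21 annotates 4175 bases, of which 900 are coding without the stop codon. That equals the coding sequence with its stop codon, and a model of that extent would leave reads from the untranslated bases out of its count. The start that RefSeq gives for Ffar1, base 30861470, is also the first coding base in M21. The 250 bases before it and 50 from it on (chr7:30861421-30861720, GRCm38.p6, minus strand) are shown because a counted model of the coding sequence of the most abundant receptor would begin here, with the 50 coding bases in capitals.
Ffar1-201: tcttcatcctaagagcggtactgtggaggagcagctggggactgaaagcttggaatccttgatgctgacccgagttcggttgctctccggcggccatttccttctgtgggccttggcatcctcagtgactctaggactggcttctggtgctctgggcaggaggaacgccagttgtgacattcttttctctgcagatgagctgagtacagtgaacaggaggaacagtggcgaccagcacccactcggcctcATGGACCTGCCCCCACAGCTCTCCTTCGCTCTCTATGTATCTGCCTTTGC

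Ffar2 and Ffar3 encode the receptors for the short-chain fatty acids made by gut bacteria, such as acetate and propionate. Ffar3 couples to Gi, and Ffar2 to Gi and Gq. With Ffar1 they form a cluster of 43.2 kb on chromosome 7, all on the minus strand, in the order Ffar2, Ffar3, Ffar1, with 30.6 kb between Ffar2 and Ffar3, 1.21 kb between Ffar3 and Ffar1, and no other annotated gene between them. Ffar2 (30818348 to 30823775) had 2552 counts and 12.0 TPM in CAST and 2043 counts and 14.8 TPM in B6, a log2 ratio of 0.03 (-0.05 to 0.12). Ffar3 (30854330 to 30856178) had 1307 counts and 8.41 TPM in CAST and 1148 counts and 11.5 TPM in B6, a log2 ratio of -0.10 (-0.22 to 0.01). Neither could be told from equality at this depth, and the sign for Ffar2 turned with total counts (-0.12), where all genes stood at -0.14. Of the 3 neighbours only Ffar1 had an interval away from 0.

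Ffar2 was counted on 3 transcripts that share 1 coding exon and begin at different places. Ffar2-201, from the farthest upstream start, held 75.5% of the gene's TPM in CAST and 80.3% in B6. Ffar2-202 held 22.04% in CAST and 16.9% in B6, with 486 counts in CAST and 295 in B6 (log2 0.43, 0.22 to 0.64), while Ffar2-201 differed by -0.05 (-0.14 to 0.05). Ffar2-203 had 56.1 counts in CAST and 50.6 in B6, on a model whose implied length was 1969 bases, where M21 gives 1210, so its counts may not belong to the M21 start. RefSeq places a start at the same base as each of the 3 M21 transcripts, and the windows around them are shown to set the starts side by side, with the 50 bases from the start on in capitals. They lie at chr7:30823726-30824025, chr7:30821090-30821389 and chr7:30821599-30821898 on the minus strand of GRCm38.p6.
Ffar2-201: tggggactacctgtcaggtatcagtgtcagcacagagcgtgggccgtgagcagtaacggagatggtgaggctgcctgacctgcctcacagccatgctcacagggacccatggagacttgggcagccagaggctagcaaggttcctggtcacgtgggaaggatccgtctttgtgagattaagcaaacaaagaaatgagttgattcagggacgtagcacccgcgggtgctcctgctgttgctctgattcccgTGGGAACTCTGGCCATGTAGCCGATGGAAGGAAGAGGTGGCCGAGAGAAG
Ffar2-202: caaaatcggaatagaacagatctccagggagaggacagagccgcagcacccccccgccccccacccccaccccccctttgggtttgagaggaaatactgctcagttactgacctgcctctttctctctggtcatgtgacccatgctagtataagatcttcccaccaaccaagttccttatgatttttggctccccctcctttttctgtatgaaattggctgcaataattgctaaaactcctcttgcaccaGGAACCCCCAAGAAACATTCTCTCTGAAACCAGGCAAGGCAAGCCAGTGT
Ffar2-203: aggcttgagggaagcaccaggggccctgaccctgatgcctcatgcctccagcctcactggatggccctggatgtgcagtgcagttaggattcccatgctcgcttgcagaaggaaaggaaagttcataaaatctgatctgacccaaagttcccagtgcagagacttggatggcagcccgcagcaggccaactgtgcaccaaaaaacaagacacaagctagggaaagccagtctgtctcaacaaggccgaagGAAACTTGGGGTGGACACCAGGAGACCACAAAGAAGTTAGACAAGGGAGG
The TATA box letters TATAAA, the CCAAT box and the GC box letters GGGCGG were searched on both strands. The window of Ffar2-202 held the CCAAT box in 1 place and the GC box letters in 1 place, which do not overlap, and the windows of Ffar2-201 and Ffar2-203 held none of the 3 motifs. Among all 32851 promoter windows of this length 13.6% held the TATA box letters, 37.4% those of the CCAAT box and 35.7% those of the GC box. The windows held 11, 3 and 3 CpG dinucleotides in the order shown, where the median over all windows was 7.

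Ffar4 (ENSMUSG00000054200, chromosome 19, 38097071 to 38114263) encodes a second receptor for long-chain fatty acids, which in mouse islets has been found mainly in the somatostatin-secreting delta cells. It had 677 counts and 5.12 TPM in CAST, against 841 counts and 9.89 TPM in B6, and was 1.52-fold higher in B6 (log2 -0.60, -0.75 to -0.45). The direction was the same, from -0.83 to -0.60, under those of the 8 alternatives that could alter this ratio. It thus went the opposite way from Ffar1, the other receptor for long-chain fatty acids. Delta cell markers were lower in CAST for 6 of 7 genes, with none at 0 counts, and summed to 3647 TPM in CAST and 8550 TPM in B6. Among them the somatostatin gene Sst differed by log2 -0.90, the transcription factor gene Hhex by -0.79 and the ghrelin receptor gene Ghsr by -1.37, while the leptin receptor gene Lepr differed by 0.96. The list's median of -0.71 is that of Nrg1, with 17 counts in CAST and 23 in B6, and was -0.36 when CAST was thinned to the B6 depth. The part of these markers in the ratio of Ffar4 was not tested.

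Gpr119 (ENSMUSG00000051209, chromosome X, 48667979 to 48674478) encodes a Gs-coupled receptor for oleoylethanolamide and lysophosphatidylcholine, found on beta cells and on the gut cells that secrete incretins. It had 2270 counts and 10.3 TPM in CAST and 2018 counts and 14.2 TPM in B6. The log2 ratio of -0.12 (-0.21 to -0.03) is small beside the spread of all genes, whose quartiles were -0.29 and 0.28 (100 or more counts). Gpr55 (ENSMUSG00000049608, chromosome 1, 85938318 to 85961007), which encodes a receptor for lysophosphatidylinositol, had 3 counts in CAST (exact Poisson interval 0.619 to 8.77) and 1 in B6 (0.0253 to 5.57). Both values are at or below the floor of 3 counts, so no ratio is given and its transcripts were not detectable at this depth. A gene on the other strand, 4933407L21Rik, overlaps its exons by 71 bases and had 330 counts in CAST and 2 in B6.

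**Figure D2:**
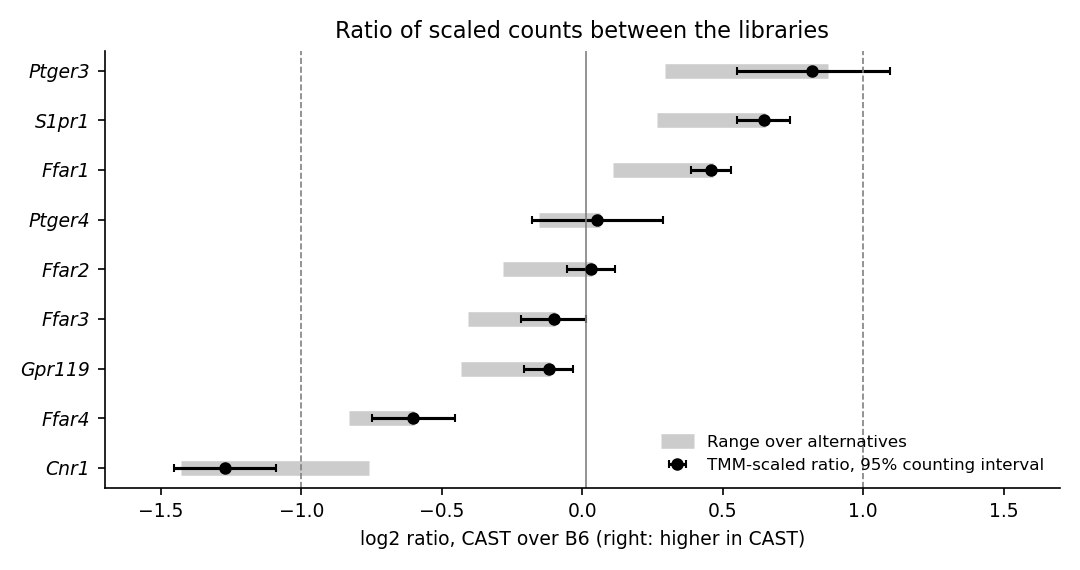
The log2 ratio of CAST over B6 for the 9 receptors with 100 or more counts, with 95% counting intervals (bars) and the range over 8 alternatives (grey bands); dashed lines mark 2-fold and the solid line the median of all genes. Cnr1 at -1.27 is the only receptor past 2-fold, and its band reaches -0.76.

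Cnr1 (ENSMUSG00000044288, chromosome 4, 33924593 to 33948831) encodes the cannabinoid receptor CB1, a Gi-coupled receptor for anandamide and other endocannabinoids. It had 380 counts and 0.674 TPM in CAST and 751 counts and 2.05 TPM in B6, and was 2.41-fold higher in B6 (log2 -1.27, -1.45 to -1.09). The difference was unevenly divided among its transcripts. Cnr1-201 had 379 counts in CAST and 526 in B6 (log2 -0.76, -0.96 to -0.57), whereas Cnr1-202 had 0 counts in CAST and 224 in B6. Against the floor of 3 counts per library Cnr1-202 was 91.2-fold lower in CAST. That value covers counting error only and sets no bound on how reads were divided. Without Cnr1-202, a computation added after seeing the data, Cnr1 differed by -0.76 and was no longer 2-fold apart. This computation takes counts from B6 only, so it could move the ratio in no other direction. By TPM with a pseudocount of 1 Cnr1 differed by -0.87, which is also short of 2-fold. That constant is large beside 0.674 TPM in CAST and 2.05 TPM in B6, and draws the ratio towards 0. The levels themselves lie more than 2-fold apart. Cnr1-202 made up 29.7% of the gene's TPM in B6.

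Both transcripts hold the whole coding sequence of Cnr1 in the same last exon and differ in the first. The first exon of Cnr1-202 has 493 bases and begins 1570 bases downstream of that of Cnr1-201, so these transcripts carry the same coding sequence behind different leaders. Of its 31-base words 434 are found in no other transcript of the gene, against 40 for Cnr1-201, whose first exon lies within that of the noncoding Cnr1-203. How sure RSEM was of this division cannot be read from the tables. The RefSeq windows nearest to both starts are shown because the counts of the transcripts that begin there differ, with the 50 bases from the RefSeq start on in capitals (chr4:33924394-33924693 and chr4:33926130-33926429, plus strand, GRCm38.p6).
Cnr1-201: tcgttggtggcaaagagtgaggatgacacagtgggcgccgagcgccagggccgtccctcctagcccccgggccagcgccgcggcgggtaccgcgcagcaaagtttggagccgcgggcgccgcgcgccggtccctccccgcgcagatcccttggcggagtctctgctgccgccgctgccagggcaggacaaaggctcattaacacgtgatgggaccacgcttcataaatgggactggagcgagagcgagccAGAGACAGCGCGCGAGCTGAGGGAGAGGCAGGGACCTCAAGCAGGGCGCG
Cnr1-202: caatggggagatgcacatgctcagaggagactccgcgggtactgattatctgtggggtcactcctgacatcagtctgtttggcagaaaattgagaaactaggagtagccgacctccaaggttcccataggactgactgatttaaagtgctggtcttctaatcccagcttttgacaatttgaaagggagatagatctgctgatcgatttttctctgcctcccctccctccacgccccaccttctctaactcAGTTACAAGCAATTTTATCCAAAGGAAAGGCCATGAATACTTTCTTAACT
The RefSeq start lies 12 bases from that of Cnr1-201 and 178 bases downstream of that of Cnr1-202, so that window also holds the M21 start. The upstream window is 69.0% G and C with 33 CpG dinucleotides, and the downstream window 46.3% with 5, where the median over all windows was 7. Neither window held any of the 3 motifs searched for Ffar2.

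Ptger3 and Ptger4 encode receptors for prostaglandin E2 with opposite effects on cyclic AMP, since Ptger3 couples mainly to Gi and Ptger4 to Gs. Ptger3 (ENSMUSG00000040016, chromosome 3, 157566892 to 157645888) had 354 counts and 1.79 TPM in CAST and 164 counts and 1.28 TPM in B6, and was 1.76-fold higher in CAST (log2 0.82, 0.55 to 1.10). It was higher in CAST, from 0.29 to 0.87, under those of the 8 alternatives that could alter its ratio. Ptger4 (ENSMUSG00000039942, chromosome 15, 5206661 to 5244187) had 346 counts and 1.07 TPM in CAST and 273 counts and 1.31 TPM in B6, a log2 ratio of 0.05 (-0.18 to 0.29). By TPM it was -0.15, where all genes stood at -0.22, so the sign of this ratio depends on the scaling. On either scale it lay above the median of all genes. Ptger4 overlaps exons of Ttc33, on the other strand, by 82 bases. A pseudogene on the other strand, Gm15937, overlaps exons of Ptger4 by 1015 bases, the length of its match to the noncoding transcript. Gm15937 had 0 counts in CAST and 6 in B6.

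The higher Ptger3 count in CAST was assigned to Ptger3-201. This transcript had 232 counts in CAST and 65.9 in B6 (log2 1.52, 1.12 to 1.94), whereas Ptger3-202 had 122 in CAST and 98.1 in B6 (0.03, -0.37 to 0.43). Ptger3-201 held 66.5% of the gene's TPM in CAST and 41.2% in B6, and so was the main transcript in CAST only. Mouse EP3, the protein of Ptger3, is known for splice forms that differ in the intracellular tail, and both transcripts encode such a pair. They share the first 2 coding exons, after which Ptger3-202 includes an exon of 89 bases (157641721 to 157641809) that Ptger3-201 skips. The coding bases that follow the shared exons are shown, read from M21 transcripts on the plus strand of GRCm38, with the stop codon in capitals. They begin at base 157643875 in Ptger3-201 and at base 157641721 in Ptger3-202.
Ptger3-201: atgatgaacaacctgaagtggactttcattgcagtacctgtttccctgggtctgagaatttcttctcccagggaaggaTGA
Ptger3-202: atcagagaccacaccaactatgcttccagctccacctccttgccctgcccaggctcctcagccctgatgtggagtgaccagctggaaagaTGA
The tails have 78 and 90 coding bases in the order shown. The implied length of Ptger3-201 was 2018 bases, where M21 gives 3148, and which bases its counted model lacks cannot be read from the tables. Of the 31-base words of Ptger3-202 only 115 are found in no other transcript of the gene. The 1166 such words of Ptger3-201 are those of the longer M21 model, so the division between them may rest on little sequence.

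Ptger4 also had another main transcript in each library. Ptger4-201 held 52.2% of the gene's TPM in CAST and 34.6% in B6, with 179 counts in CAST and 93.1 in B6 (log2 0.65, 0.29 to 1.03), and Ptger4-202 held 46.8% in CAST and 62.8% in B6, with 163 counts in CAST and 171 in B6 (-0.36, -0.68 to -0.04). The transcripts differ at the end of the first exon, and their annotated coding sequences are 1539 bases for Ptger4-201 and 1464 for Ptger4-202. Only 40 of the 31-base words of Ptger4-201 and 88 of those of Ptger4-202 are found in no other transcript of the gene, so the division rests on little sequence. Of the 4 receptors with several transcripts, Ptger3 and Ptger4 thus differed in main transcript and Ffar2 and Cnr1 did not. Over all 8981 genes that had several transcripts and reached 100 counts both in CAST and in B6, 8.11% differed. From 4 genes this count says nothing particular about the group.

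**Figure D3:**
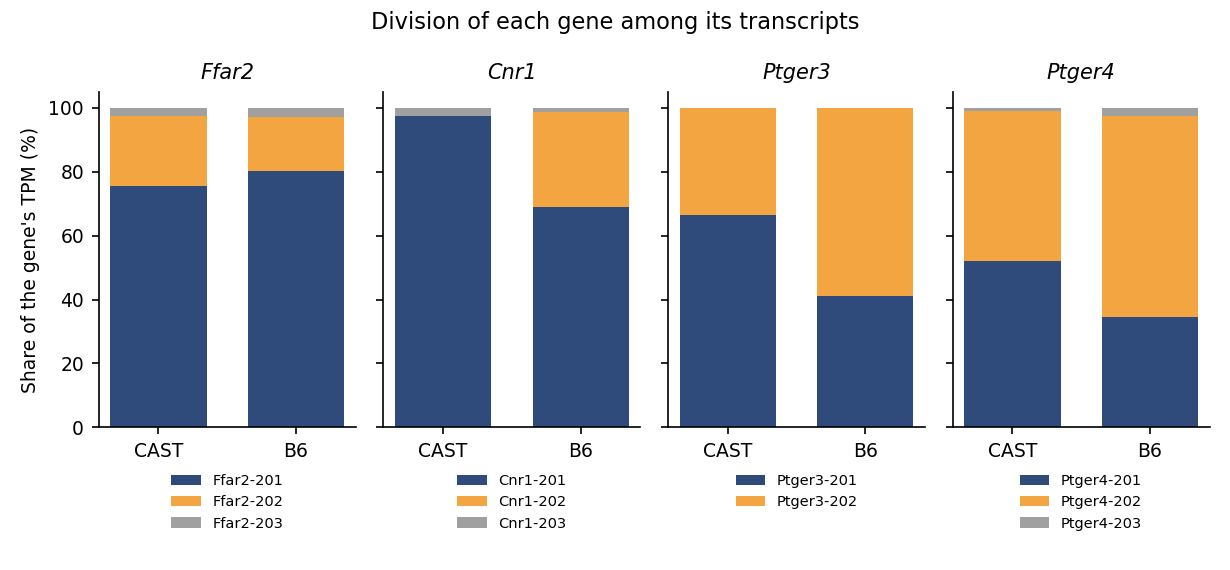
Share of each gene's TPM (%) assigned to its annotated transcripts in CAST (left bar) and B6 (right bar) for the 4 receptors with several counted transcripts. Cnr1-202 had 0 counts in CAST and holds 29.7% in B6, and Ptger3-201 holds 66.5% in CAST and 41.2% in B6.

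S1pr1 (ENSMUSG00000045092, chromosome 3, 115710433 to 115715072) encodes a Gi-coupled receptor for sphingosine 1-phosphate that is abundant in endothelial cells, where it maintains the vessel barrier. It had 2640 counts and 8.90 TPM in CAST and 1381 counts and 7.23 TPM in B6, and was 1.56-fold higher in CAST (log2 0.65, 0.55 to 0.74). The direction was the same, from 0.27 to 0.65, under those of the 8 alternatives that could alter this ratio. Endothelial markers had a median log2 ratio of 0.29, with 7 of 10 above 0 and none at 0 counts, and summed to 233 TPM in CAST and 257 TPM in B6. The defining genes Pecam1 and Cdh5 differed by 0.41 and 0.49, the clotting factor gene Vwf by 1.44, and the receptor gene Kdr by 0.01. In the other direction were Emcn (-0.29), Egfl7 (-0.23) and Tek (-0.02), and by TPM the median of the list was -0.05. Markers of fibroblasts, stellate cells and pericytes, with a median of 0.99 (0.32 by TPM) and 9 of 10 above 0, summed to 84.6 TPM in CAST and 68.5 TPM in B6. What part these cells have in the level of S1pr1 was not tested.

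Other cell types that can carry these receptors also had markers in both libraries. Macrophage markers had a median of 0.27 (-0.07 by TPM), with 6 of 10 above 0, and summed to 90.8 TPM in CAST and 99.3 TPM in B6. Lymphocyte markers summed to 6.65 TPM in CAST and 11.6 TPM in B6, with 5 of the 7 with 20 or more counts above 0. Alpha cell markers had a median of -0.44 (-0.76 by TPM), with 6 of 10 below 0, and summed to 39375 TPM in CAST and 65978 TPM in B6. PP and epsilon cell markers had a median of 0.36 (0.07 by TPM), with 4 of 4 above 0. Duct markers had a median of 0.48 (0.04 by TPM, 4 of 7 above 0) and those of Schwann cells, neurons and adipocytes one of 0.40 (0.01 by TPM, 5 of 6 above 0), with the adipocyte genes Adipoq, Plin1 and Cfd at 0 counts in both libraries. The part of these cells in the ratios of the receptors was not tested.

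**Figure D4:**
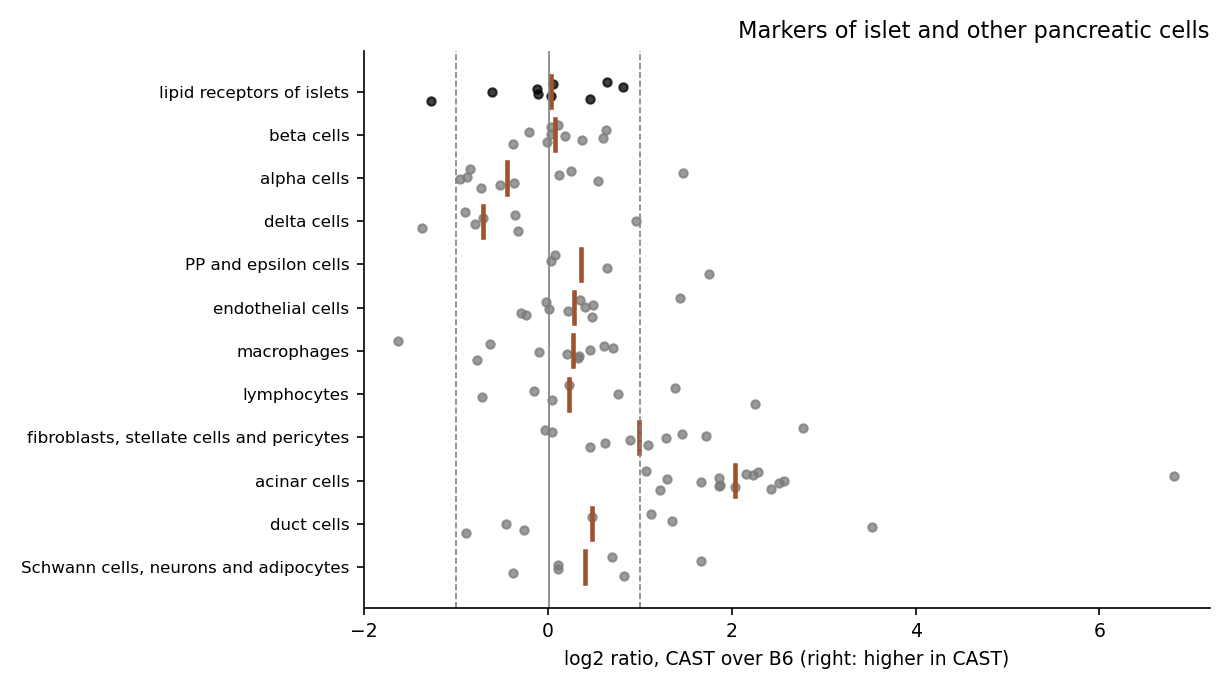
The log2 ratio of CAST over B6 for the receptors (top, black) and for markers of islet and other pancreatic cells (grey), 1 point per gene with 20 or more counts and an orange bar at each median. Delta cell markers centre at -0.71, acinar markers at 2.04 and the receptors at 0.03.

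Most of the receptors, all of the G protein-coupled class, shared a gene structure, which was not compared with that of other such receptors. In 7 of the 10 (Ffar1, Ffar2, Ffar3, Gpr119, Gpr55, Cnr1 and S1pr1) the longest coding sequence lies in 1 exon, as in 16.3% of 21943 protein coding genes of M21. The exceptions are Ffar4, Ptger3 and Ptger4. Apart from the pseudogene Gm15937, which overlaps Ptger4 on the other strand, no near-identical copy was found for any receptor.

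The remaining receptors for related lipids were mostly scarce. Among 10 further receptors of fatty acids, cannabinoids and hydroxy acids with deposited values, 3 had 100 or more counts. None of the 3 was 2-fold apart, where 13.2% of all genes were. The lactate receptor gene Hcar1 had 795 counts in CAST and 341 in B6 (log2 0.93, 0.75 to 1.12), and Hcar2, the receptor gene for hydroxybutyrate and niacin, 452 in CAST and 374 in B6 (-0.02, -0.22 to 0.19). Gpr183, an oxysterol receptor gene, differed by 0.06. Of 12 other prostanoid and leukotriene receptors 5 had enough counts. Ptger1, a further receptor gene for prostaglandin E2, was more abundant than Ptger3 and Ptger4, with 8.99 TPM in CAST and 15.5 TPM in B6 (log2 -0.44, -0.51 to -0.37), and Cysltr2, a leukotriene receptor gene, was 2.86-fold higher in B6 on 42 counts in CAST and 99 in B6. Cysltr1 differed by 0.76 and the prostacyclin receptor gene Ptgir by 0.32.

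Of 13 other lysophospholipid receptors 7 had 100 or more counts. Among these only Lpar1, a receptor gene for lysophosphatidic acid, was 2-fold apart, where 13.2% of all genes were. It had 824 counts in CAST and 325 in B6 (log2 1.05, 0.87 to 1.24). Lpar6 was the most abundant of the list, with 4.95 TPM in CAST and 6.78 TPM in B6 (-0.11). S1pr2 and S1pr4, receptor genes for sphingosine 1-phosphate, differed by 0.77 and -0.45 on fewer than 100 counts per library. None of the 3 receptor lists stood far from all genes, with medians of 0.06, 0.24 and 0.26. By TPM with a pseudocount of 1 they were -0.03, -0.07 and -0.01, where all genes stood at -0.22. Most genes of these lists lay below 1 TPM, where that constant draws ratios towards 0.

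Genes of prostaglandin synthesis and removal went both ways. Of 12 with enough counts 3 were past 2-fold towards CAST, where 7.18% of all genes were, and 2 towards B6, where 5.99% were (median 0.29, and -0.06 by TPM). Hpgds, a prostaglandin D synthase gene, had 2838 counts in CAST and 708 in B6 (log2 1.71, 1.60 to 1.84), and Ptgr1, a prostaglandin reductase gene, 432 in CAST and 100 in B6 (1.82, 1.51 to 2.15). Ptges, the inducible prostaglandin E synthase gene, had 408 in CAST and 872 in B6 (-1.38, -1.56 to -1.21), and Hpgd, whose enzyme inactivates prostaglandins, 66 in CAST and 153 in B6 (-1.49, -1.94 to -1.08). Ptges3 was the most abundant of the list and differed by 0.01.

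Genes of sphingosine 1-phosphate and lysophosphatidic acid metabolism had a median of 0.05 (-0.11 with total counts and -0.27 by TPM). Past 2-fold were 2 of 16 towards CAST, where 7.18% of all genes were, and 2 towards B6, where 5.99% were. Sphk1, a kinase gene that makes sphingosine 1-phosphate, had 172 counts in CAST and 29 in B6 (log2 2.26, 1.71 to 2.90), and the ceramidase gene Acer2 differed by 1.04. Sgpp2, whose phosphatase removes sphingosine 1-phosphate, had 3286 counts in CAST and 7466 in B6 (-1.47, -1.53 to -1.41). Enpp2, which encodes autotaxin, the enzyme that makes lysophosphatidic acid, stood at 54.4 TPM in CAST and 161 TPM in B6 (-1.22, -1.25 to -1.19). Asah1, the acid ceramidase gene, was the most abundant in CAST, at 99.4 TPM, against 106 TPM in B6.

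Enzymes of endocannabinoids and acylethanolamides were all within 2-fold (10 of 10), where 13.2% of all genes were 2-fold apart in either direction. Their median was 0.26 and -0.08 by TPM. Abhd6 and Mgll, which encode hydrolases of monoacylglycerols, were 1.95-fold and 1.56-fold higher in CAST, while Daglb, a gene for an enzyme that makes the endocannabinoid 2-arachidonoylglycerol, differed by -0.28 and Abhd4 by -0.11. Gde1 was the most abundant, at 101 TPM in CAST and 94.5 TPM in B6.

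Genes that act after the receptors were compared as well. Of 24 genes of G proteins, phospholipase C, arrestins and their regulators with enough counts 1 was past 2-fold towards CAST and none towards B6, where 13.2% of all genes were past 2-fold in either direction. The list ran from -0.73 to 1.13, with a median of -0.05 (-0.27 by TPM). That gene was Gna14, a Gq family member, on 94 counts in CAST and 35 in B6. Gnai3, a Gi subunit gene, differed by 0.82, Plcb4 by -0.69 and Arrb2, which encodes beta-arrestin 2, by -0.73. Gnas, the Gs subunit gene, was the most abundant, with 865 TPM in CAST and 960 TPM in B6. Genes of fatty acid uptake, lipolysis and binding had a median of 0.06 (-0.09 with total counts and -0.25 by TPM). Of the 15, 1 was past 2-fold towards CAST, where 7.18% of all genes were, and 1 towards B6, where 5.99% were. These were the fatty acid binding protein genes Fabp3, with 1342 counts in CAST and 232 in B6 (log2 2.24, 2.04 to 2.45), and Fabp4, with 312 in CAST and 562 in B6 (-1.14, -1.34 to -0.94). The fatty acid transporter gene Cd36 differed by -0.91, and Lpl, the lipoprotein lipase gene and the most abundant of the list, by 0.54.

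**Figure D5:**
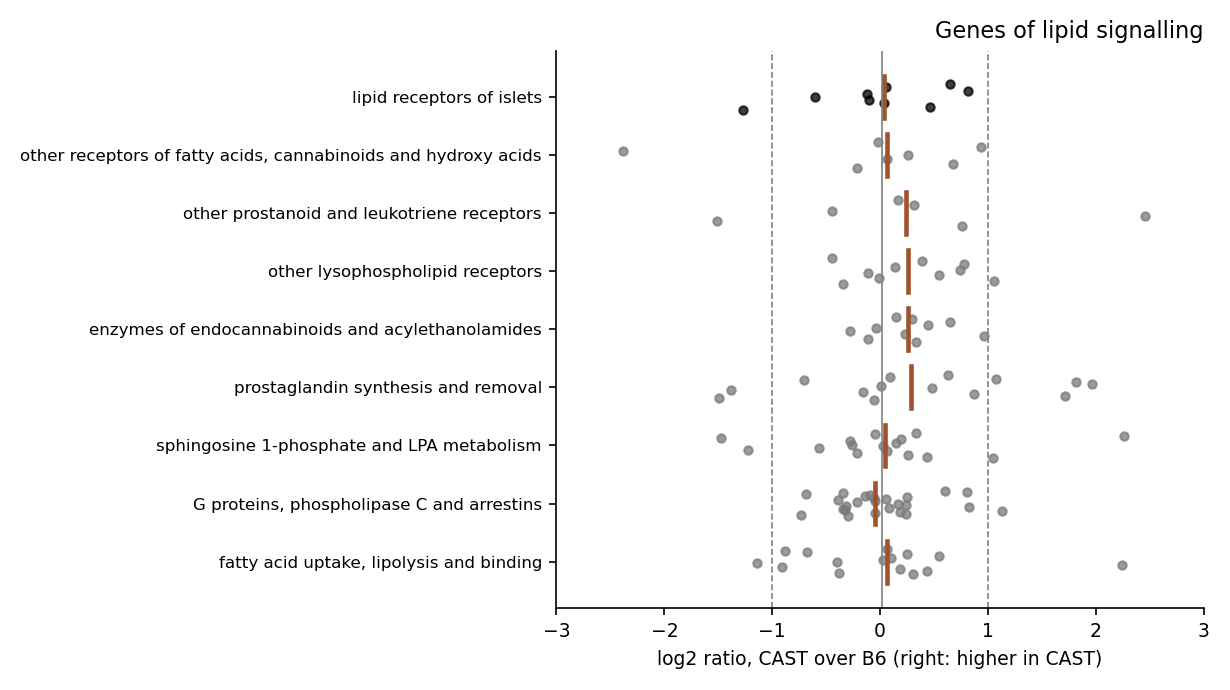
The log2 ratio of CAST over B6 for the receptors (top, black) and for 8 lists of related receptors, ligand enzymes and signalling genes (grey), 1 point per gene with 20 or more counts and an orange bar at each median. List medians lie between -0.05 and 0.29, and single enzyme genes reach past 2-fold (dashed lines) on both sides.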

How the data were processed

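RNA of pooled islets was sequenced in 1 library per strain, with 104324631 expected counts in CAST and 76600903 in B6. The deposited files hold expected counts per transcript from the authors' RSEM run on GRCm38, per the submitters' processing notes. Their second value is a fraction that sums to 1 over the transcripts of each deposited file, and multiplied by 1000000 it is TPM. Not given in the sources used here are the RSEM version, aligner, annotation release, read length and strand setting.

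For each gene the expected counts of its transcripts were added and rounded. Of 38924 gene IDs 37607 matched a symbol in the gene name table used, as did 230 of 231 list genes (Oxer1 was not analysed here). Counts were scaled by library total times the TMM factor of edgeR 4.0.16 in R 4.3.3, which was 0.947 for CAST and 1.06 for B6. The log2 ratio is CAST over B6 with 0.5 added to each scaled count. Its 95% interval is an exact Clopper-Pearson one on the gene's counts, CAST against both; intervals of counts and TPM are exact Poisson intervals. Intervals and the floor (3 counts per library) cover counting error only: reads are not independent molecules, and RSEM divides shared reads. Calls at 2-fold needed 100 counts over both libraries, and list medians 20. No test was made and no p-value is given.

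Near-identical copies of the 10 genes were sought with minimap2 2.31 among M21 transcripts (95% identity, 200 bases or more, 50% of the shorter of the pair). The ratio computation was tested on simulated data.

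The 10 genes and the lists were chosen with earlier results of these data known. Genes named from each pathway list are its 2 highest and 2 lowest ratios among genes reaching 100 counts in total, and its highest TPM. Genes that overlap the receptors, and those used as cell markers beside a receptor, were chosen after their values were seen. Alternatives were DESeq2 1.42.0 size factors, total counts, TPM with a pseudocount of 1, scaling without 8 hormone and 15 acinar genes, a constant of 5, thinning, copies added, other count filters and coding transcripts only. Other software was Python 3.11.15, pandas 2.3.3, numpy 2.4.6, matplotlib 3.10.9 and scipy 1.17.1. Sequences are from the RefSeq promoter table (GRCm38.p6), which held 9 of the 10 genes, and from GENCODE M21 transcripts.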

Additional observations from a re-analysis of the deposited data

How the results depend on the processing

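No paired analysis was possible because each strain has 1 library, and for the same reason no replicate could be left out. The count of receptors at least 2-fold higher in B6 was 1 (Cnr1). It became 0 by TPM with a pseudocount of 1, a constant that is large beside the TPM of Cnr1 and draws its ratio towards 0. It also became 0 when Cnr1-202 was left out, an alternative chosen after seeing the data. Since Cnr1-202 had 0 counts in CAST, leaving it out takes counts from B6 only. The count of receptors stayed at 1 under the other settings, and none was 2-fold higher in CAST under any. The median log2 ratio was -0.28 by TPM, where that of all genes was -0.22, against 0.03 in the scaling used, and under the other settings it ranged from -0.12 to 0.04. The median of all genes moved by -0.16 with total counts and by -0.24 by TPM, and directions are to be read relative to it. Of the 9 ratios, 2 changed sign, Ffar2 under 4 of 8 alternatives and Ptger4 under 2, all among values whose counting interval spans 0. Adding copies could move Ptger4 only, and leaving out Cnr1-202 could move Cnr1 only, so these settings do not bear on the other ratios. Ffar2 and Ptger3 were counted on coding transcripts alone, so only the shares of Cnr1 and Ptger4 could move when noncoding transcripts were left out. Of all 18 shares of coding transcripts 17 stayed within their counting error, and the largest move was 2.37 percentage points. Depth limits Gpr55, and the transcripts of Cnr1, Ptger3 and Ptger4, along with Ffar2-202, Ffar2-203 and Ffar4-201, all with under 1000 counts in each library.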
